A study of Mus musculus with 15 samples.

Results

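The immunity-related GTPases measured here are 7 interferon-inducible mouse genes, Irgm1, Irgm2, Igtp, Iigp1, Ifi47, Tgtp1 and Tgtp2. They were taken by symbol from a deposited table of 23420 gene symbols. All 7 had a row, and all 7 were among the 13592 genes that reached at least 1 TPM, a transcript abundance corrected for length and scaled to a fixed total, in at least 3 of the 15 libraries and were tested.

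Immunity-related GTPases defend mouse cells against intracellular parasites and bacteria, and their transcription is switched on by interferons, above all by interferon gamma. The effector members gather on the membrane around a pathogen and break it open. The regulator members sit on the cell's own membranes and hold the effectors inactive there. In a bulk tumor their transcripts can come from tumor cells and from any host cell that has met interferon, so fewer cells of a type and less RNA per cell cannot be told apart in these data.

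Each library was made from a whole tumor grown from an injected mouse melanoma line, with 3 libraries in each of 5 groups. The hosts were female C57BL/6 mice of 8 weeks with 1000000 cells injected in each flank. The UV2 tumors came from the line D3UV2, which the design describes as carrying putative neoantigens made by UVB light, and were treated with anti-PD-1 antibody (UV2 anti-PD-1) or an isotype control antibody (UV2 isotype). The parental tumors came from the line D4M.3A.3 and received triple therapy, anti-PD-1 antibody or isotype control antibody. Anti-PD-1 blocks an inhibitory receptor of T cells. Triple therapy adds imiquimod, which activates an innate immune receptor, and ablative fractional photothermolysis, which drills narrow laser channels into tissue, but its labels conflict. The sample characteristics pair both with anti-PD-1, and the treatment protocol pairs them with isotype antibody. Left-flank tumors were treated on days 8, 10 and 12, with the laser on days 8 and 12, and were taken on day 13. The protocol mentions lotion as the counterpart of imiquimod without saying which groups received it. Each arm of the line comparison is a single cell line, and the labels leave unstated whether libraries of one group are from different mice. The p-values therefore measure only the spread between these samples, which may be technical.

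The depth of the libraries is unknown, because TPM sets every library to the same total. Between 12239 and 13993 genes reached 1 TPM in a library, and the correlation between libraries ran from 0.820 to 0.990. Of 7 melanocyte markers, Mitf was listed at 5.28 to 14.2 TPM and Tyr at 1.49 to 4.57 TPM, whereas Sox10, Tyrp1, Dct, Pmel and Mlana fell below the filter. Replicate 1 of parental triple therapy stood apart, with 16202 TPM summed over 6 keratinocyte markers and 28264 TPM over 7 fibroblast markers. The sums in the other parental triple therapy libraries were 116 and 1154 TPM for keratinocyte markers, and 6288 and 12599 TPM for fibroblast markers.

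In the GENCODE annotation of build GRCm38, 6 of the 7 genes lay on chromosome 11. Irgm1 (chr11:48861968-48871683), Tgtp1 (chr11:48985327-48994172) and Tgtp2 (chr11:49057194-49064206) on the minus strand and Ifi47 (chr11:49076587-49096974) on the plus strand filled a stretch of 235 kb. Igtp (chr11:58199556-58207591) and Irgm2 (chr11:58199618-58222782) overlapped each other on the plus strand. Iigp1 lay alone among the 7 on chromosome 18 (chr18:60376027-60392634, plus strand). All 7 are annotated as protein coding.

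Some of these genes share sequence that a read counter must divide. The coding sequences of Tgtp1 and Tgtp2 differed at 4 of 1245 bases, an identity of 99.7%, and the other 20 pairs of members had identities of 46.6% to 66.3%. Of all 50-base windows in the transcripts, 89.4% of those of Tgtp1 occurred in Tgtp2 and 89.8% of those of Tgtp2 in Tgtp1. Between the overlapping genes, 12.3% of the windows of Igtp occurred in Irgm2 and 6.29% of those of Irgm2 in Igtp. The split of reads between Tgtp1 and Tgtp2 is therefore uncertain, and their summed TPM is given beside the separate values. The gene Olfr56 overlaps Tgtp1, Tgtp2 and Ifi47 and was listed at 0.55 to 4.84 TPM, and Gm12185, which overlaps Tgtp1, was listed at 1.04 to 8.97 TPM.

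The promoters are shown because several of them carry interferon-response motifs in a shared arrangement. RefSeq windows of build GRCm38.p6, from 250 bases before to 50 bases after a transcript start, were at hand for 6 members, and Iigp1 had none. Each of the 6 had 1 window, so other starts of the same gene were not searched. The windows of Irgm2 (chr11:58214727-58215026) and Tgtp1 (chr11:48992197-48992496) lay well inside the GENCODE spans given above. Both strands were searched for the core of the interferon-stimulated response element (ISRE), GAAANNGAAA, and for the gamma-activated site (GAS), TTCNNNGAA, where N is any base. The ISRE core was found in 5 of 6 member windows, against 3.44% of all 32851 windows. The GAS was found in 4 of 6, against 8.30% of all windows. Both occurred in the windows of Irgm2, Igtp, Tgtp1 and Tgtp2, against 0.454% of all windows. Irgm1 held a pair of ISRE cores that share 4 bases and no GAS, and Ifi47 held neither motif in its window. A match describes letters and does not show binding.

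The stretches around the matches are printed 5′ to 3′ on the gene's strand, with the matched motifs in capitals. They lie at chr11:48871415-48871470 (Irgm1, minus strand), chr11:58214882-58214942 (Irgm2, plus strand), chr11:58199491-58199551 (Igtp, plus strand), chr11:48992294-48992354 (Tgtp1, minus strand) and chr11:49064253-49064313 (Tgtp2, minus strand).
Irgm1: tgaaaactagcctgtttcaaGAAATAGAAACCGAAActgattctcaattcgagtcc
Irgm2: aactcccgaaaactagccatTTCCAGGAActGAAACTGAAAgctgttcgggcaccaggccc
Igtp: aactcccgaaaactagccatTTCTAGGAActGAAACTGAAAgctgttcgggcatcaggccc
Tgtp1: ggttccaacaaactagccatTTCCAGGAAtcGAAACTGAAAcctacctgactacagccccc
Tgtp2: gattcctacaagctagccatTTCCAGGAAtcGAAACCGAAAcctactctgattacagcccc

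In the last 4 of these sequences the GAS stands 2 bases before the ISRE core. That arrangement, noticed after the sequences were seen, occurred in 5 of the 32851 windows (0.0152%), those of Gm12185, Igtp, Irgm2, Tgtp1 and Tgtp2. Gm12185 is another locus of the same family. It overlaps Tgtp1 on the minus strand, and its annotated 5′ end (chr11:48992226) lies inside the Tgtp1 window. The match in Gm12185 may thus be the same site as that in Tgtp1, so the 5 windows may not hold 5 separate sites. The stretches of Irgm2 and Igtp were identical at 59 of 61 bases and those of Tgtp1 and Tgtp2 at 47 of 61. The ISRE core began 30 and 24 bases before the transcript start of the window in Irgm1, 64 in Irgm2, 34 in Igtp, 77 in Tgtp1 and 70 in Tgtp2.

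The 3 regulators were abundant in every library. TPM corrects for transcript length, so levels can be set side by side between genes. Irgm1, a regulator that guards the cell's own membranes, had levels of 404, 213 and 430 TPM in UV2 anti-PD-1 tumors, 197, 320 and 402 TPM in UV2 isotype tumors, 137, 346 and 257 TPM in parental triple therapy tumors, 118, 232 and 267 TPM in parental anti-PD-1 tumors, and 134, 137 and 116 TPM in parental isotype tumors. The parental isotype tumors lay close together, and in each other group 1 tumor was well below its companions. Igtp, the regulator also called Irgm3, had levels of 487, 228 and 605 TPM in UV2 anti-PD-1 tumors, 201, 455 and 446 TPM in UV2 isotype tumors, 138, 415 and 269 TPM in parental triple therapy tumors, 110, 297 and 311 TPM in parental anti-PD-1 tumors, and 135, 149 and 122 TPM in parental isotype tumors. It followed Irgm1 closely, with a correlation of 0.989 over the 15 libraries on the log2(TPM + 1) scale. Irgm2, the third regulator, was lower, at 141, 59.0 and 130 TPM in UV2 anti-PD-1 tumors, 87.1, 123 and 177 TPM in UV2 isotype tumors, 72.1, 137 and 100.5 TPM in parental triple therapy tumors, 58.0, 101 and 109 TPM in parental anti-PD-1 tumors, and 60.8, 68.3 and 38.3 TPM in parental isotype tumors. The UV2 anti-PD-1 tumors overlapped those of every other group for Irgm2.

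Among the effectors, Ifi47 (also called Irgd) was the one whose lines did not overlap under either antibody. It had levels of 389, 215 and 525 TPM in UV2 anti-PD-1 tumors, 221, 424 and 352 TPM in UV2 isotype tumors, 108, 248 and 187 TPM in parental triple therapy tumors, 84.2, 209 and 179 TPM in parental anti-PD-1 tumors, and 107, 97.8 and 124 TPM in parental isotype tumors. Every UV2 tumor exceeded every parental anti-PD-1 and isotype tumor, and only replicate 2 of parental triple therapy reached into the UV2 range. Iigp1 (also called Irga6), an effector that coats the vacuoles of Toxoplasma parasites, behaved differently. Its levels were 350, 168 and 345 TPM in UV2 anti-PD-1 tumors, 157, 266 and 369 TPM in UV2 isotype tumors, 174, 609 and 402 TPM in parental triple therapy tumors, 130, 373 and 448 TPM in parental anti-PD-1 tumors, and 181, 190 and 114 TPM in parental isotype tumors. Its 3 highest values were all in treated parental tumors, and the lines overlapped under both isotype and anti-PD-1 antibody.

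Tgtp1 and Tgtp2, the near-identical pair of effectors also called Irgb6, were listed at different levels. Tgtp2 had 247, 144 and 337 TPM in UV2 anti-PD-1 tumors, 140, 270 and 263 TPM in UV2 isotype tumors, 120, 344 and 235 TPM in parental triple therapy tumors, 98.7, 263 and 281 TPM in parental anti-PD-1 tumors, and 120, 142 and 105 TPM in parental isotype tumors. Tgtp1 had 106, 51.8 and 125 TPM in UV2 anti-PD-1 tumors, 18.6, 63.3 and 95.0 TPM in UV2 isotype tumors, 44.2, 138 and 83.7 TPM in parental triple therapy tumors, 28.9, 67.1 and 104 TPM in parental anti-PD-1 tumors, and 29.4, 24.1 and 20.6 TPM in parental isotype tumors. Tgtp1 made up 11.7% to 30.0% of the summed TPM of the pair in UV2 tumors and 14.5% to 28.7% in parental tumors. That share depends on how the authors' software divided reads between them.

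**Figure D1:**
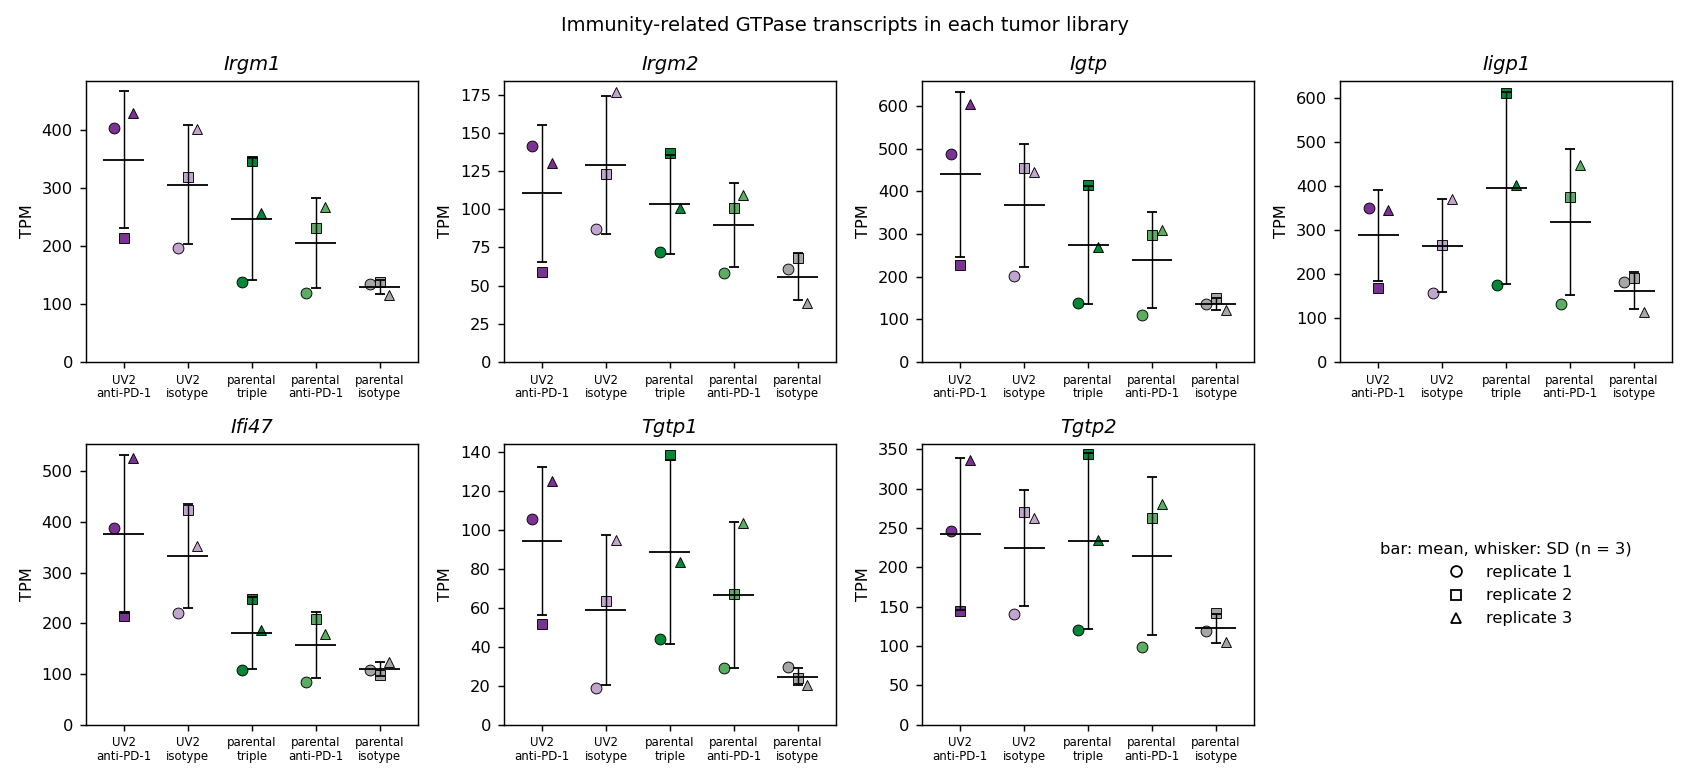
TPM (linear axis from 0) of the 7 GTPases in each of the 15 tumor libraries, by group; circles, squares and triangles are replicates 1, 2 and 3, bars are means and whiskers SD (n = 3). All 7 genes are lowest on average in parental isotype tumors, and in each of the other 4 groups the same library is lowest for all 7 genes.

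On average every one of the 7 GTPases was lowest in parental isotype tumors. The mean was highest in UV2 anti-PD-1 tumors for Irgm1, Igtp, Ifi47, Tgtp1 and Tgtp2, in UV2 isotype tumors for Irgm2, and in parental triple therapy tumors for Iigp1. Ifi47 averaged 376 ± 156 TPM in UV2 anti-PD-1, 333 ± 103 TPM in UV2 isotype, 181 ± 70.3 TPM in parental triple therapy, 157 ± 65.2 TPM in parental anti-PD-1 and 109 ± 13.2 TPM in parental isotype tumors (SD, n = 3 each). Most neighbours in these orders did not differ beyond their spread. Of 28 gaps between neighbouring group means, 2 exceeded the larger SD of the pair. They were the gap of 152 TPM in Ifi47 between UV2 isotype and parental triple therapy, and the gap of 33.7 TPM in Irgm2 between parental anti-PD-1 and parental isotype. Over all libraries the mean level of Igtp ranked 483 and that of Tgtp1 2423 among the 23420 symbols.

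The spread within groups was shared by the whole family. In 4 of 5 groups a single library was lowest for all 7 genes, namely replicate 2 of UV2 anti-PD-1, replicate 1 of UV2 isotype, replicate 1 of parental triple therapy and replicate 1 of parental anti-PD-1. The summed level of the 7 genes was 2123, 1080 and 2498 TPM in UV2 anti-PD-1 tumors, 1022, 1922 and 2105 TPM in UV2 isotype tumors, 794, 2237 and 1534 TPM in parental triple therapy tumors, 629, 1542 and 1698 TPM in parental anti-PD-1 tumors, and 768, 809 and 640 TPM in parental isotype tumors. The lowest treated parental tumors were thus at the level of the parental isotype tumors. Across the 21 pairs of members the correlation over 15 libraries ran from 0.588, for Iigp1 with Ifi47, to 0.989, with a median of 0.887. After the group means were subtracted it ran from 0.763, for Irgm2 with Ifi47, to 0.991, for Igtp with Tgtp2, with a median of 0.933. These correlations describe 15 libraries that share their groups, and the overlapping and near-identical pairs also share reads.

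Marker sums moved with the low libraries in some groups. The 7 fibroblast markers summed to 7158, 11291 and 2579 TPM in UV2 anti-PD-1 tumors, 4653, 2326 and 6930 TPM in UV2 isotype tumors, 28264, 6288 and 12599 TPM in parental triple therapy tumors, 8305, 2927 and 3079 TPM in parental anti-PD-1 tumors, and 4435, 4624 and 4060 TPM in parental isotype tumors. In UV2 anti-PD-1, parental triple therapy and parental anti-PD-1 the library lowest for the GTPases was the one highest for fibroblast markers, which was not so in UV2 isotype. The 9 T cell markers summed to 532, 385 and 444 TPM in UV2 anti-PD-1 tumors, 76.2, 337 and 311 TPM in UV2 isotype tumors, 53.9, 52.6 and 67.6 TPM in parental triple therapy tumors, 110, 114 and 39.0 TPM in parental anti-PD-1 tumors, and 48.7, 42.1 and 148 TPM in parental isotype tumors. In both UV2 groups the library lowest for the GTPases was also lowest for T cell markers. The part of tissue composition in the GTPase levels was not tested.

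Ifng, which encodes interferon gamma, the main inducer of the family, was listed at 29.5, 18.8 and 30.9 TPM in UV2 anti-PD-1 tumors, 3.32, 14.8 and 12.6 TPM in UV2 isotype tumors, 2.42, 7.71 and 7.66 TPM in parental triple therapy tumors, 3.42, 5.12 and 5.12 TPM in parental anti-PD-1 tumors, and 2.32, 1.54 and 5.41 TPM in parental isotype tumors. In the 4 groups with a low GTPase library, that same library was also the lowest for Ifng. In parental isotype, replicate 3 had the lowest summed GTPase level (640 TPM) and the highest Ifng (5.41 TPM). Ifng was the sole gene of 8 interferon genes on the list that passed the filter; Ifnb1 reached at most 1.06 TPM and Ifna1, Ifna2, Ifna4, Ifna5, Ifnl2 and Ifnl3 were listed at 0 in all 15 libraries.

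**Figure D2:**
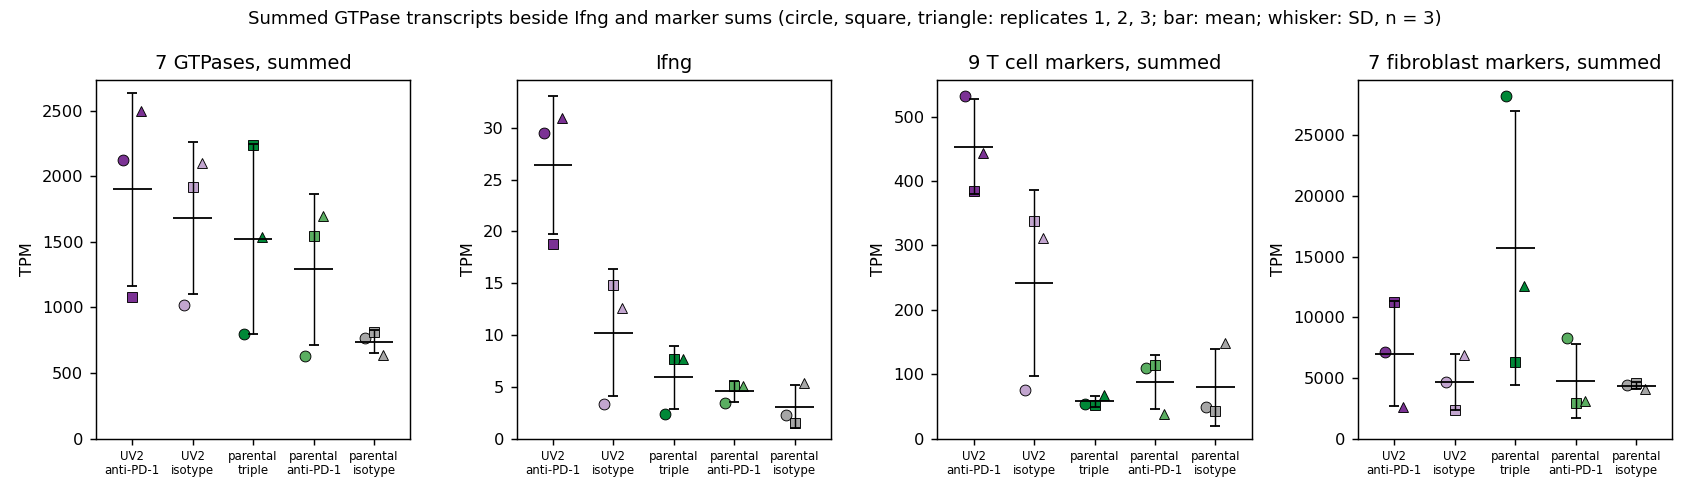
TPM (linear axes from 0) per library of the 7 GTPases summed, of Ifng, of 9 T cell markers summed and of 7 fibroblast markers summed, by group; circles, squares and triangles are replicates 1, 2 and 3, bars are means and whiskers SD (n = 3). The libraries with the lowest summed GTPase level (1080, 1022, 794 and 629 TPM) in the UV2 anti-PD-1, UV2 isotype, parental triple therapy and parental anti-PD-1 groups also have the lowest Ifng of their groups.

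The first comparison asked how UV2 tumors differ from parental tumors under isotype antibody, without therapy. The level of all 7 GTPases was higher on average in UV2 tumors, and in Irgm1, Irgm2, Igtp and Ifi47 the groups did not overlap, but none passed the test. In limma's test with Benjamini-Hochberg adjustment over all genes, 0 of 7 were called at an adjusted p under 0.05, against 1.29% of all genes tested. The log2 fold change, on the log2(TPM + 1) scale used for all fold changes here, was 1.55 ± 0.41 (SE) in Ifi47 with an adjusted p of 0.0790 from limma. It was 1.34 ± 0.50 in Igtp, 1.18 ± 0.40 in Irgm1 and 1.18 ± 0.39 in Irgm2, with limma adjusted p of 0.129 to 0.176. For Tgtp1, Tgtp2 and Iigp1 it was 0.96 ± 0.60, 0.82 ± 0.46 and 0.66 ± 0.53, and the groups overlapped. The median over the 7 members was 1.18, beside a median of −0.041 over all genes. Of all genes, 10.4% were higher in UV2 without overlap. Ifi47 passed at an adjusted p of 0.0471 in limma when replicate 1 of parental triple therapy was left out of the shared estimate of spread, with the fold change itself unaltered.

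Under anti-PD-1, the same line comparison gave a rise in 1 of 7 members, Ifi47. Its log2 fold change was 1.26 ± 0.41 with an adjusted p of 0.0409 from limma, and its lowest UV2 anti-PD-1 tumor (215 TPM) lay just above its highest parental anti-PD-1 tumor (209 TPM). Of all genes tested, 26.4% were called in this comparison, 9.31% higher and 17.1% lower, and 16.9% were higher without overlap. The 1 call among 7 members (14.3%) is near the 9.31% called higher, so this count is no result about the family. Igtp and Irgm1 had log2 fold changes of 0.90 ± 0.50 and 0.78 ± 0.40, and those of Tgtp1, Irgm2, Tgtp2 and Iigp1 were 0.58, 0.25, 0.24 and −0.034. The 95% interval for Iigp1 ran from −1.18 to 1.11. The members' median was 0.58, beside −0.21 over all genes, and 0.082 without replicate 1 of parental anti-PD-1. The call of Ifi47 was lost, with limma adjusted p of 0.0534 to 0.166, when any 1 of 6 libraries was left out. Without replicate 1 of parental anti-PD-1 its log2 fold change was 0.86 (adjusted p 0.141 in limma). Without replicates 3 and 1 of UV2 anti-PD-1 the log2 fold change was 0.97 (0.166) and 1.19 (0.0702), and without replicate 3 of parental anti-PD-1 it was 1.40 (0.101). Leaving out replicate 1 of parental isotype or replicate 3 of parental triple therapy, which are outside this contrast, left it at 1.26 (0.0542 and 0.0534). The call was also lost without the filter, with the compared groups alone (limma adjusted p 0.0596 and 0.0618) and under library weights (0.57, limma adjusted p 0.0674), where Iigp1 was called lower in UV2 tumors (−0.93, limma adjusted p 0.0300).

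With isotype and anti-PD-1 tumors averaged, 6 UV2 against 6 parental libraries, 3 of the 7 GTPases rose in UV2 tumors. They were the effector Ifi47 and the regulators Igtp and Irgm1. Their log2 fold changes were 1.41 ± 0.29 for Ifi47, 1.12 ± 0.35 for Igtp and 0.98 ± 0.28 for Irgm1, with limma adjusted p of 0.00487, 0.0290 and 0.0200. Of all genes tested, 33.0% were called, 13.4% higher and 19.6% lower, so calls were frequent in this comparison. Irgm2 had a log2 fold change of 0.71 ± 0.27 and missed the threshold at a limma adjusted p of 0.0591. Tgtp1, Tgtp2 and Iigp1 had 0.77 ± 0.43, 0.53 ± 0.33 and 0.31 ± 0.38. The summed level of Tgtp1 and Tgtp2 gave 0.59 ± 0.34 with a limma adjusted p of 0.186, so treating the pair as 1 gene gave no call either. The median of the members was 0.77 and that of all genes −0.12.

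These pooled calls did not rest equally on all libraries. Ifi47 was called in all 23 alternatives run for it, with log2 fold changes of 0.96 to 1.58. Irgm1 was called in 22 of 23 and lost without replicate 3 of UV2 anti-PD-1 (0.89, limma adjusted p 0.0530), where Ifi47 was the 1 member of 7 still called. Igtp was called in 16 of 23. Its log2 fold change was 0.98 (limma adjusted p 0.0750) without replicate 3 of UV2 anti-PD-1, 1.02 (0.0718) without replicate 2 of UV2 isotype, 1.03 (0.0515) without replicate 3 of UV2 isotype, and 0.88 (0.0663) without replicate 1 of parental anti-PD-1. Without replicates 1 and 2 of parental isotype it was 1.13 (0.0609) and 1.16 (0.0537). Under library weights it was 0.51 (limma adjusted p 0.0917), and the log2 fold change of Irgm1 was 0.49 (0.0491). Without replicate 1 of UV2 isotype, the library lowest in that group, 5 of 7 were called, the others being Irgm2 (0.84, adjusted p 0.0401 in limma) and Tgtp1 (1.10, 0.0405). In that setting 4463 of 13571 genes were called. Irgm2 was also called without replicate 2 of UV2 anti-PD-1 (0.91, limma adjusted p 0.0209).

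The median of all genes depended on scaling. In the line comparison under anti-PD-1 it was −0.21 with TPM as deposited and 0.038 after median-of-ratios scaling, and in the pooled comparison −0.12 and 0.027. Relative to the median of all genes in the deposited values, the members' median log2 fold change was 1.22 under isotype, 0.79 under anti-PD-1 and 0.89 in the pooled comparison. After median-of-ratios or quantile scaling, 4 of 7 members were called in the pooled comparison, Irgm2 being the fourth, at limma adjusted p of 0.0320 and 0.0391. Of all 13592 genes, 4761 and 4994 were called there, against 4484 with TPM as deposited. The fold change of Iigp1 under anti-PD-1 was −0.034 as deposited and 0.24 after median-of-ratios scaling, and was not called either way.

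**Figure D3:**
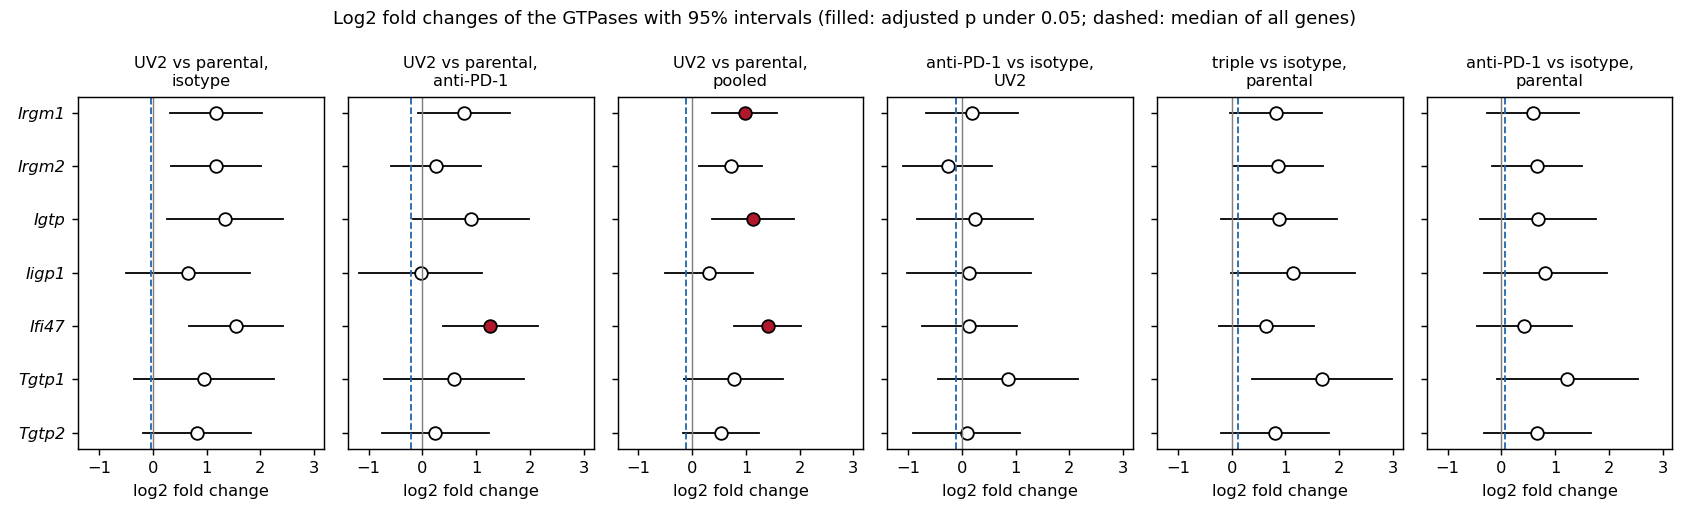
Log2 fold changes (log2(TPM + 1) scale) of the 7 GTPases with 95% intervals from limma in 6 comparisons; filled points have an adjusted p under 0.05 and the dashed line is the median of all genes tested. Filled points are Ifi47 in the UV2 comparison under anti-PD-1, and Irgm1, Igtp and Ifi47 in the pooled UV2 comparison; in the comparisons of treatments none is filled.

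The genes around the family showed where the interferon pathway differed between the lines. In the pooled comparison Ifng rose, with a log2 fold change of 1.83 ± 0.36 (limma adjusted p 0.00402). The counts that follow stand against 13.4% of all genes called higher and 19.6% called lower in this comparison. Of 18 signalling factors 11 rose and none fell. Those with the smallest p were the transcription factors Irf8 (1.48) and Irf7 (2.0) and the feedback inhibitor Socs1 (1.69). Of 4 receptor genes 2 rose, Ifnar2 (0.46) and Ifngr1 (0.55). Of 11 guanylate-binding protein genes, a larger class of interferon-induced GTPases, 8 rose, among them Gbp1 (3.90), Gbp8 (1.67) and Gbp5 (1.19), and reads of these related genes may be divided uncertainly. The median log2 fold change was 1.20 over the 11 guanylate-binding proteins and 0.66 over the 18 signalling factors, against −0.12 over all genes.

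Of 9 other loci of the immunity-related GTPase family that were tested, 4 rose in the pooled comparison and 1 fell, against 13.4% and 19.6% of all genes. Gm12250, the gene RefSeq also calls Irgb10, was listed at 16.2 to 105 TPM and rose by a log2 fold change of 1.44 ± 0.32 (limma adjusted p 0.00654). Gm12185 (1.19), Gm5431 (1.04) and Gm4951 (1.10) also rose. Irgq fell by 0.72 (limma adjusted p 0.0206). Gm4951 and Irgq are named after their values were seen. Of 10 genes of the ubiquitin-like conjugation system, which loads these GTPases onto vacuoles in mouse cells, Gabarap rose (0.32) and Atg16l1 fell by 0.41, and the other 8 did not pass. A call in 2 of 10 genes is below the 33.0% of all genes called, so this count is no result about the list.

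Within the separate treatments fewer pathway genes passed. Under isotype antibody, against 0.905% of all genes called higher, 4 of 18 signalling factors rose in UV2 tumors, with the smallest p in Irf9 (0.90), Socs1 (1.84) and Irf7 (2.23). None of the receptors, guanylate-binding proteins, other family loci or conjugation genes passed there. Ifng had a log2 fold change of 1.37 ± 0.51 there, with a limma adjusted p of 0.177. Under anti-PD-1, Ifng rose by 2.29 ± 0.51 (limma adjusted p 0.0160). Against 9.31% of all genes called higher, 4 of 18 signalling factors rose, with the smallest p in Irf8 (1.60), Socs1 (1.55) and Irf1 (1.08), and so did 2 of 11 guanylate-binding proteins, Gbp1 (4.46) and Gbp8 (1.68). Of 4 receptors 2 rose, Ifnar2 (0.53) and Ifngr1 (0.81). Of 10 conjugation genes 1 rose, Gabarap (0.40). Of 9 other family loci 1 fell, Irgq by 1.08, against 17.1% of all genes called lower. The counts for the conjugation genes and the other loci are no result about those lists.

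Markers of immune cells differed between the lines, but few were called under isotype antibody. In the pooled comparison 8 of 9 T cell markers, 6 of 6 natural killer cell markers, 6 of 10 macrophage and monocyte markers and 5 of 7 dendritic cell markers rose in UV2 tumors, and none fell. Of all genes, 13.4% were called higher and 19.6% lower there. Under anti-PD-1, 8, 4, 6 and 4 markers of these lists rose, in the same order, against 9.31% of all genes. Under isotype antibody, 2 of 10 macrophage and monocyte markers rose, against 0.905% of all genes. No T cell, natural killer cell or dendritic cell marker rose there. Replicate 1 of UV2 isotype had a T cell marker sum of 76.2 TPM, below the highest parental isotype sum of 148 TPM. Macrophage and monocyte markers summed to 5748 to 7129 TPM in UV2 anti-PD-1 tumors, 3266 to 5080 TPM in UV2 isotype tumors, 3762 to 6969 TPM in parental triple therapy tumors, 2315 to 3907 TPM in parental anti-PD-1 tumors and 2331 to 3090 TPM in parental isotype tumors. In parental triple therapy and parental anti-PD-1 the library lowest for the GTPases was the highest for these markers (6969 and 3907 TPM). In UV2 anti-PD-1 and UV2 isotype it lay between the others (6091 and 3970 TPM). In the pooled comparison immune cell markers and GTPases were thus both higher on average in UV2 tumors. The part of immune cell content in the GTPase levels was not tested.

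Beyond their level, the lines differed in the mixture of the 7 transcripts, a description chosen after the values were seen and not tested. The summed level of the 4 effectors divided by that of the 3 regulators was 1.06, 1.16 and 1.14 in UV2 anti-PD-1 tumors, 1.11, 1.14 and 1.05 in UV2 isotype tumors, 1.28, 1.49 and 1.45 in parental triple therapy tumors, 1.19, 1.45 and 1.47 in parental anti-PD-1 tumors, and 1.32, 1.28 and 1.32 in parental isotype tumors. The 6 UV2 libraries (1.05 to 1.16) thus did not overlap the 9 parental libraries (1.19 to 1.49). Within each line the ratios of the treatments overlapped. Leaving out each library in turn, the log2 difference of the ratio between UV2 and parental tumors in the pooled comparison stayed between −0.32 and −0.24.

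The effector Iigp1 stood at one end of this difference, and the regulator Igtp and the effector Ifi47 at the other. The members thus did not split by class, as the effector Ifi47 had the highest pooled log2 fold change of the 7 (1.41). The ratio of Igtp to Iigp1 was 1.21 to 1.75 in the 6 UV2 libraries and 0.670 to 1.07 in the 9 parental libraries, without overlap. Ifi47 to Iigp1 was 0.956 to 1.60 in UV2 and 0.399 to 1.09 in parental libraries, where replicate 3 of UV2 isotype and replicate 3 of parental isotype crossed. As a share of the summed level of the 7 genes, Iigp1 held 13.8% to 17.5% in UV2 and 17.8% to 27.2% in parental libraries. Tgtp2 held 11.6% to 14.1% in UV2 and 15.1% to 17.6% in parental libraries, and Igtp 19.7% to 24.2% in UV2 and 17.4% to 19.3% in parental libraries. These 3 shares did not overlap between the lines, whereas those of Irgm1, Irgm2, Ifi47 and Tgtp1 did. No ratio or share was computed for other genes, so how often one separates the lines is unknown. Of all genes tested, 16.9% were higher and 34.3% lower in UV2 without overlap under anti-PD-1, and 10.4% and 9.15% under isotype. Those figures compare 3 with 3 libraries, fewer than the 6 and 9 here. The effector to regulator ratio moved with the library's summed GTPase level in treated parental tumors, where the library with the lowest sum also had the lowest ratio, 1.28 under triple therapy and 1.19 under anti-PD-1. Shares of a sum are not independent of each other.

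**Figure D4:**
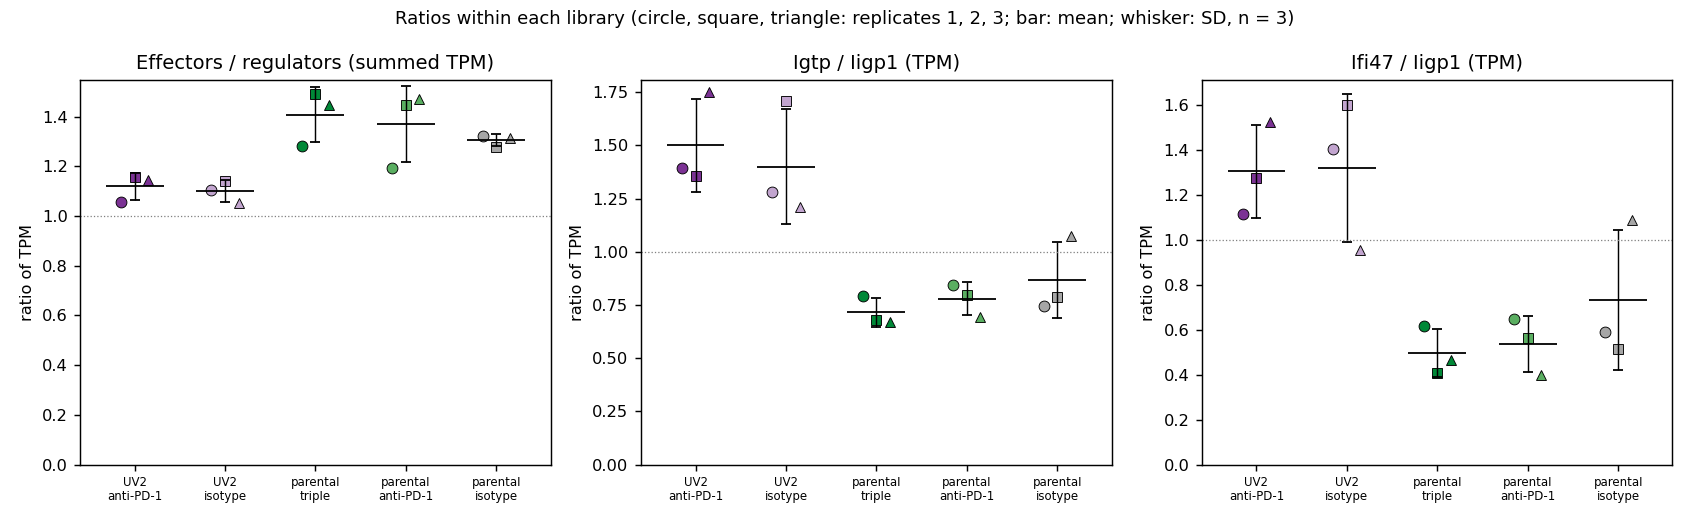
Ratios of TPM within each library (linear axes from 0): the 4 effectors over the 3 regulators, Igtp over Iigp1 and Ifi47 over Iigp1, by group; circles, squares and triangles are replicates 1, 2 and 3, bars are means and whiskers SD (n = 3). The effector to regulator ratio is 1.05 to 1.16 in UV2 and 1.19 to 1.49 in parental libraries, and Igtp over Iigp1 is 1.21 to 1.75 in UV2 and 0.670 to 1.07 in parental libraries.

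**Figure D5:**
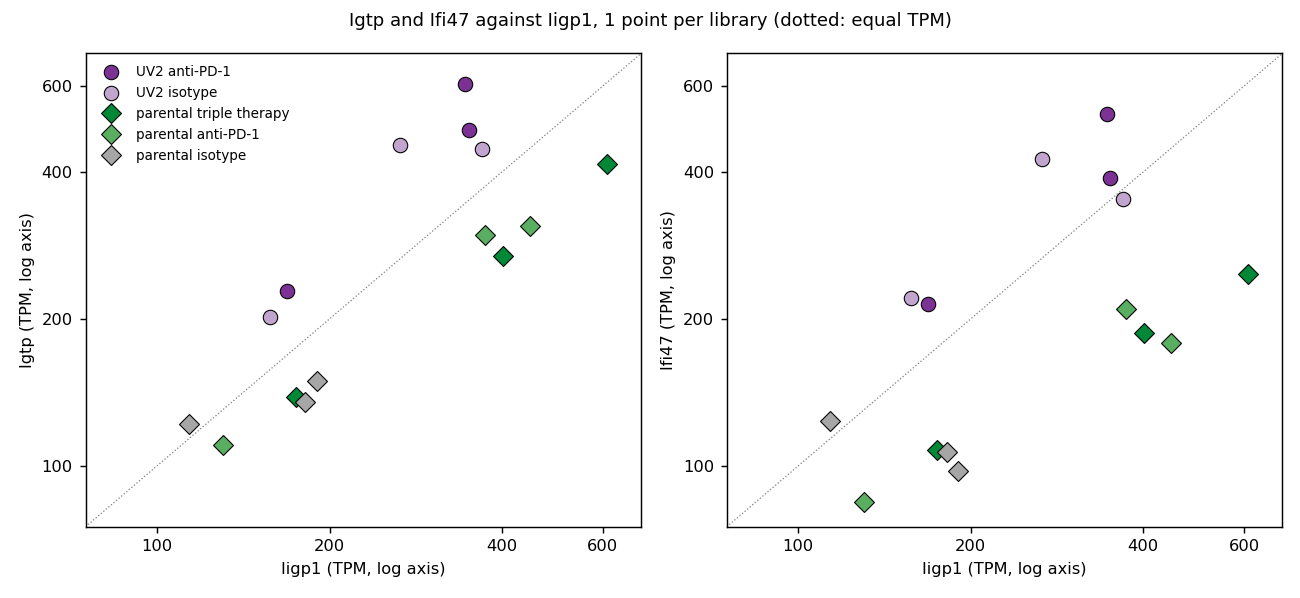
Igtp (left) and Ifi47 (right) against Iigp1, each in TPM on log axes, 1 point per library, circles for UV2 and diamonds for parental tumors; the dotted line marks equal TPM. Within each line the points rise together broadly but not in strict order, and at similar Iigp1 levels the UV2 libraries lie above the parental ones.

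Anti-PD-1 was compared with isotype antibody within each line. In parental tumors the mean of all 7 GTPases was higher under anti-PD-1, but replicate 1 of parental anti-PD-1 overlapped the isotype tumors in every gene. The log2 fold changes ran from 0.43 in Ifi47 to 1.23 in Tgtp1, with a median of 0.67 beside 0.070 over all genes. Of all genes tested, 65.4% had a positive fold change there. Tgtp2 had 0.67 ± 0.46, and the summed level of Tgtp1 and Tgtp2 gave 0.79 ± 0.48. None of 7 was called by limma (adjusted p of 1 in each), and 0 of 13592 genes were, with 83 below an unadjusted p of 0.05. Without replicate 1 of parental anti-PD-1 the members' median was 1.15, without replicate 2 of that group 0.46 and without replicate 3 of it 0.42, and none was called in any of these. The 95% interval of the log2 fold change was −0.072 to 2.53 for Tgtp1 and −0.46 to 1.31 for Ifi47.

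In UV2 tumors, anti-PD-1 gave log2 fold changes of −0.26 to 0.85 against isotype, with a median of 0.14 beside −0.11 over all genes. None of 7 members was called, against 0.0147% of all genes, and the groups overlapped in all 7. The members' median was −0.15 without replicate 1 of UV2 isotype and −0.047 without replicate 3 of UV2 anti-PD-1. Ifng had a log2 fold change of 1.46 ± 0.51 in the same comparison (limma adjusted p 0.542). The difference between the lines in the effect of anti-PD-1 was tested as an interaction. It was negative for all 7 members, from −0.92 to −0.29 with a median of −0.44, beside −0.16 over all genes, of which 34.9% were positive. Limma called none (adjusted p 0.800 to 0.886). The members' median was −0.92 without replicate 1 of parental anti-PD-1 and −0.085 without replicate 2 of UV2 anti-PD-1. None of the 13592 genes was called, 404 having an unadjusted p under 0.05. These comparisons share their control tumors with the line comparisons above.

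Triple therapy against isotype antibody in parental tumors gave higher means in all 7 members. In Irgm1, Irgm2 and Tgtp1 the 3 treated tumors exceeded the 3 isotype tumors, in Irgm1 by 137.45 against 137.29 TPM at the closest, and 12.7% of all genes were higher without overlap. Tgtp1 had the highest log2 fold change, 1.67 ± 0.60, followed by Iigp1 at 1.14 ± 0.53, and Ifi47 the lowest, 0.64 ± 0.41. Tgtp2 had 0.81 ± 0.46, and the summed level of Tgtp1 and Tgtp2 gave 1.00 ± 0.48. The lowest summed level under triple therapy (164 TPM) lay below the highest under isotype (166 TPM). The first place and the lack of overlap in Tgtp1 thus depend on how reads were divided between the pair. The median was 0.87, beside 0.12 over all genes, of which 64.2% were positive. None of 7 was called (limma adjusted p 0.339 to 0.535), against 0.0221% of all genes. Without replicate 1 of parental triple therapy, the library rich in keratinocyte and fibroblast markers, the median was 1.22, and without replicate 2 of parental triple therapy it was 0.54. None was called either way. Ifng had a log2 fold change of 0.75 ± 0.51 and was not called, and no gene of the interferon, receptor, signalling, guanylate-binding, other family or conjugation lists was called. Keratinocyte marker sums were 16202, 116 and 1154 TPM in parental triple therapy tumors and 2.91, 3.81 and 3.03 TPM in parental isotype tumors, where 2 or 3 of the 6 markers were listed at 0, and their part in the GTPase levels was not tested.

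Triple therapy against anti-PD-1 in parental tumors gave log2 fold changes of 0.14 to 0.44 for the 7 members, with a median of 0.22 beside 0.043 over all genes. Of all genes tested, 56.7% had a positive fold change there. The tumors overlapped in all 7, and limma called none of the 7 (adjusted p 0.918 to 0.981). The members' median was −0.18 without replicate 1 of parental anti-PD-1 and −0.048 without replicate 2 of parental triple therapy. Limma called none of the 13592 genes, 1411 having an unadjusted p under 0.05. Because the labels conflict on the antibody given with triple therapy, it is not known whether this comparison holds the antibody constant.

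Outside the 7 members, the genes most like each member in their pattern over the 15 libraries included several guanylate-binding protein genes. Likeness was Pearson's correlation of log2(TPM + 1) with every tested gene outside the 7 members, as a description of libraries that share groups. Some members were more like each other than like any such gene, as Irgm1 and Igtp were (0.989). Outside the 7 members, Irgm1 was most like Gbp3 (0.986), Gbp6 and Gm12250, and Igtp was most like Gbp3 (0.986), Batf2 and Gbp6. Irgm2 was most like Gbp6 (0.970), Gbp9 and Gm4951. Gm12250 and Gm4951 are other loci of the same family. Iigp1, Tgtp1 and Tgtp2 all had Gbp2 in first place, at 0.923, 0.943 and 0.952, followed by Wars and Rmdn3 for Iigp1, Tapbpl and Gbp4 for Tgtp1, and Apol6 and Gbp6 for Tgtp2. Ifi47 was most like Serpina3f (0.970), Cxcl10, which encodes an interferon-induced chemokine that attracts T cells, and Zbp1. After group means were subtracted, Igtp and Tgtp2 were most like each other (0.991). Among genes outside the 7 members, Gbp2 or Gbp3 then led for Irgm1, Igtp, Iigp1 and Tgtp2, Gbp4 for Tgtp1, Gbp5 for Irgm2 and Cxcl10 for Ifi47.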

How the data were processed

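RNA from 15 tumor libraries was sequenced. Per the submitters' processing notes, the authors used Bowtie2 and RSEM with the mouse builds mm10 and GRCm38, and the versions are not given in the sources used here. The authors' deposited values are TPM per gene symbol, in which each library is scaled to the same total, so depth and counting error are unknown and a level is relative to the rest of its library. Columns were matched to samples by their names.

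Values were analysed as log2(TPM + 1), which understates changes of low genes. The 13592 genes that reached 1 TPM in 3 or more libraries entered one limma model (version 3.58.1, R 4.3.3; trend and robust options) over all 5 groups, with 10 residual degrees of freedom and no replicate block. Of 8 comparisons, p-values were adjusted by Benjamini-Hochberg over all genes tested, with a threshold of 0.05. The model was tested on simulated data. Coding sequences and positions came from GENCODE M21, and promoters from RefSeq. No protein sequences were used here.

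All 7 members are named with every library's value, and for each pathway list at most the 3 called genes with the smallest p, plus Ifng. One gene that the rule also names is not reported here. The members and lists were chosen with earlier results of these data known. Alternatives were another pseudocount (0.1), no filter or one of 5 TPM, median-of-ratios and quantile scaling, the compared groups alone, a replicate block, library weights, leaving out each library, and the sum of Tgtp1 and Tgtp2. The effector to regulator ratio and its alternatives were added after seeing the data.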

Additional observations from a re-analysis of the deposited data

How the results depend on the processing

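Within the limits of 3 libraries a group and unknown depth, the signs of the members' fold changes in the line comparison under isotype and in anti-PD-1 and triple therapy against isotype in parental tumors held under every alternative run. The count of members called depended on the setting. Library weights were very unequal (0.179 to 73.8), and their estimation did not reach its tolerance. Under them 1 member was called for anti-PD-1 against isotype in parental tumors, among 412 of 13592 genes. All 7 were called for triple therapy against isotype, among 7576 genes. For UV2 against parental under isotype 2 were called, among 3704 genes. Each count of members was 0 with equal weights. For UV2 against parental under anti-PD-1 the count of members was 0 without the filter and 0 with the compared groups alone, against 1. Leaving out each library in turn gave 0 to 1 under isotype, 0 to 1 under anti-PD-1 and 1 to 5 in the pooled comparison, against 0, 1 and 3.

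In UV2 against parental under anti-PD-1, library weights turned the members' median log2 fold change to −0.44 (0.58 with equal weights), with Igtp at −0.0024, Irgm2 at −0.52, Tgtp1 at −0.44 and Tgtp2 at −0.56. Iigp1 was then called lower (−0.93) and Ifi47 was no longer called (0.57). In the pooled comparison weights turned Iigp1 to −0.34 and Tgtp1 to −0.10. Median-of-ratios scaling turned Iigp1 under anti-PD-1 to 0.24. Leaving out each library, the anti-PD-1 values ran from −0.58 to 0.31 in Iigp1, from −0.030 to 0.65 in Irgm2 and from −0.25 to 0.57 in Tgtp2. The sign turned for Iigp1 without replicate 2 (0.17) or 3 (0.30) of parental anti-PD-1 or replicate 2 of UV2 anti-PD-1 (0.31), for Irgm2 without replicate 1 of parental anti-PD-1, and for Tgtp2 without that library or replicate 3 of UV2 anti-PD-1 (−0.041). The cause was not tested.

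Counts over all genes moved more. UV2 against parental under isotype called 176 genes, 82 without the filter, 37 with the replicate block, 21 with the compared groups alone and 3704 with library weights. Under anti-PD-1 it called 3586, and 9262 with weights, and in the pooled comparison 4484, and 8973 with weights. Weights also called 412 genes for anti-PD-1 against isotype in parental tumors, 2911 in UV2 tumors and 1303 for the interaction. For triple therapy in parental tumors they called 7576 genes against isotype and 4527 against anti-PD-1.

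The replicate block left 0, 1 and 3 members called in the line comparisons, with 37, 2526 and 4008 genes in all. Same-numbered libraries of different groups correlated at −0.54 to 0.47 in their deviations from group means, above 0.1 in 10 of 30 pairs. They matched best with their own number in 16 of 60 cases. With 3 libraries a group, whose deviations cancel, this check cannot decide whether the numbers pair the samples.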
